A study of Sus scrofa with 54 samples.

Results

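The genes described here are 46 of the 25114 pig genes in the count table, chosen because they were high in the left ventricle and low in both skeletal muscle and blood. Counts were first scaled to CPM, the count of a gene per 1000000 counts of its library. A gene was a member if its median over the 6 conventional endomyocardial biopsies (EMB) taken at baseline was at least 100 CPM and at least 10 times the value m + 1, where m was the higher of its medians in 6 skeletal muscle and 6 blood libraries. At the level limit alone 1665 genes passed, and the ratio limit left 46. A gene symbol was paired with 37 of them and 9 had an identifier only. The same rule turned round gave 67 genes enriched in skeletal muscle and 181 enriched in blood. Since conventional EMB at baseline, muscle and blood chose the members, their values are given as a description, and tests were kept to the micro-EMB and follow-up libraries that the rule did not use.

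The study sampled the porcine heart with a miniaturized endovascular biopsy device (micro-EMB), whose tissue pieces are smaller than a milligram, and sequenced total RNA from 54 samples of 5 pigs. The animals were adult Yorkshire-Swedish farm swine, female according to the methods, and no genetic change or drug was compared between groups. Baseline biopsies came from the naive left ventricle, and follow-up biopsies came from the left ventricle of the same animals a week later, after it had already been biopsied. There were 20 micro-EMB libraries at baseline from pigs 4491, 4493, 4494, 4664 and 4665, and 12 at follow-up from each of these pigs except 4493. Conventional EMB, taken with a standard forceps bioptome, gave 6 libraries at baseline and 4 at follow-up, and these came from pigs 4491 and 4494 only. The 6 skeletal muscle and 6 blood libraries were all taken at baseline, also from pigs 4491 and 4494. Several biopsies came from each pig, so libraries of 1 pig are not independent animals, and p-values over libraries measure in part the spread between biopsies of the same heart. Samples are named by the number of their deposited title.

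A heart muscle cell contracts when its membrane is excited and calcium enters, which opens the ryanodine receptor of the sarcoplasmic reticulum, and the released calcium lets myosin pull on the actin filaments of the sarcomere. Neighbouring cells are coupled end to end at the intercalated disc, where cadherins and desmosomes carry force and gap junctions carry the electrical signal. Skeletal muscle builds its sarcomeres largely from other members of the same protein families and its fibres lack intercalated discs.

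Several libraries stood apart. The total count per library ran from 64216 to 4649613 (median 1800054.5). A count of 0 allowed a level of up to 0.645 to 46.7 CPM, taken as 3 counts of the library's total, and these floors cover counting error only. Micro-EMB samples 9, 10 and 21, all taken at baseline, had fewer than 5000 genes at 1 CPM or more, and were left out of the comparisons and described by themselves. A share of counts on 52 genes that were high in blood and nearly absent from the other baseline control tissues was used to mark heart libraries that carried blood. It reached at least 10% of the median of the blood libraries in 8 of 42 heart libraries. These were conventional EMB sample 38 at baseline and samples 3, 55 and 56 at follow-up, and micro-EMB samples 4, 19, 9 and 21 at baseline. Skeletal muscle sample 57 stood at 17.5% on the same scale. The summed level of blood cell markers (6 of 9 listed genes were found, among them HBB) ranked the heart libraries differently. It was 2385, 9576, 4879 and 874 CPM in samples 38, 3, 55 and 56. In samples 4, 19, 9 and 21 it was 2659, 288, 327 and 162 CPM. Sample 44, which was not marked, held 4085 CPM, and the blood libraries 32309 to 68844 CPM. Carrying blood refers here to the 52 genes only. In bulk tissue, fewer cells of a type and less RNA per cell cannot be told apart.

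The labelled tissue was described by cardiomyocyte markers (6 of 8 listed genes were found in the table, among them MYH6, TNNT2, ACTC1, MYBPC3 and RYR2, which are also members). The rule chose those members as high in conventional EMB at baseline and low in muscle and blood. The contrast between the medians of these groups was therefore fixed in advance and cannot check their labels. Their summed level had a median of 94323 CPM in conventional EMB at baseline, 90315 CPM in the 17 micro-EMB baseline libraries with at least 5000 genes and 45077 CPM in the 12 at follow-up. It was 6006 CPM in skeletal muscle and 14.4 CPM in blood. Sample 38, labelled as left ventricle, held 94.6 CPM of these markers, below every skeletal muscle library (lowest 2062 CPM). Micro-EMB sample 36, at follow-up, held 515 CPM, and micro-EMB sample 4, at baseline, held 212 CPM.

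The members together took a large part of the heart libraries and little of the control tissues. Their summed share of counts in conventional EMB at baseline ranged from 1.03% to 15.6% with a median of 12.9% (n = 6). Sample 38 was the low one (95% Wilson interval 1.02 to 1.05%) and the other 5 lay between 11.5% and 15.6%. In the 17 micro-EMB baseline libraries the share was 0.842% at the lowest, 12.4% at the median and 17.5% at the highest. In the 12 micro-EMB follow-up libraries it was 1.41%, 6.56% and 14.3%. The timepoints overlapped over nearly their whole range, but 5 follow-up libraries, from all 4 pigs, lay under 5.09%, the lowest share among the 15 baseline libraries that carried no blood. The 4 conventional EMB libraries at follow-up held 0.615% (sample 55), 2.16% (sample 3), 12.1% (sample 56) and 13.8% (sample 50). Both low ones carried blood, as did sample 56. Skeletal muscle had 0.644 to 1.26% (median 0.729%) and blood 0.0340 to 0.0782% (median 0.0524%), so neither overlapped the 15 or the 12. The widest 95% Wilson interval of any library was 0.343 percentage points, and PCR copies are not independent molecules, so these intervals cover counting error only.

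**Figure D1:**
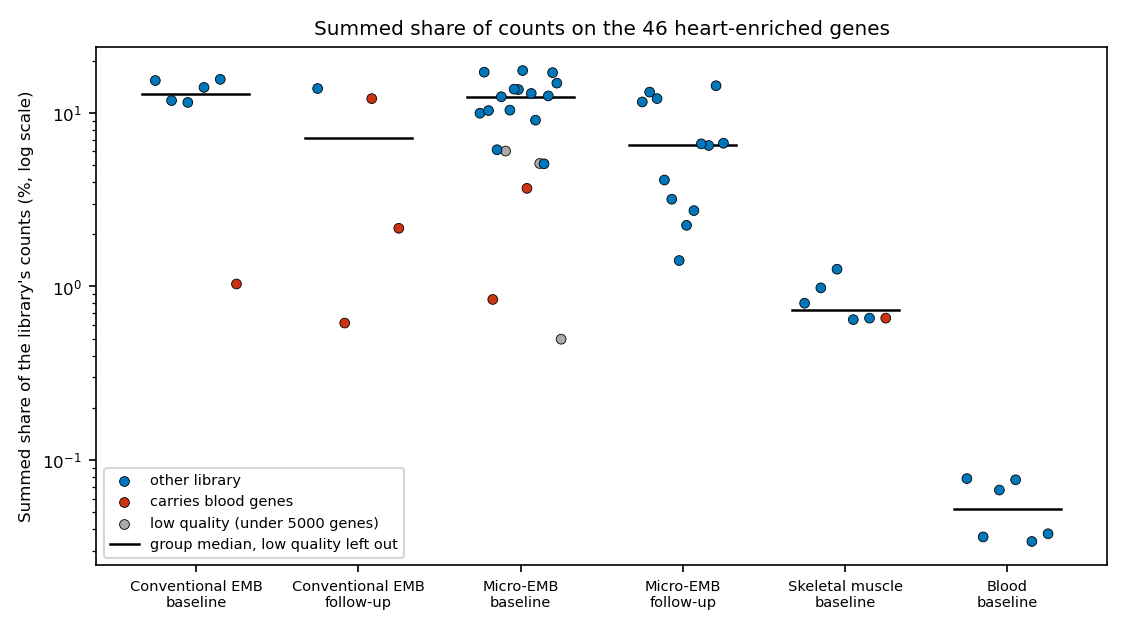
Share of each library's counts on the 46 heart-enriched genes (log axis, percent), by group. Points are libraries, red ones carry blood genes, grey ones are the low-quality biopsies and bars are medians without the grey points. The micro-EMB medians were 12.4% at baseline and 6.56% at follow-up, and the highest blood library held 0.0782%.

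A single identifier weighed heavily in this sum, the one paired with MYH6. None was paired with MYH7, so reads of that near-identical myosin chain may stand under MYH6. MYH6 led the members in 37 of the 42 heart libraries. Leaving out the 3 low-quality libraries, it took 54.4% of the member counts in the median heart library (0.237 to 62.2%). THBS1 led in the other 5, which were samples 4, 21, 36, 38 and 55. In all 6 blood libraries THBS1 was also the leading member, with 47.2 to 73.6% of the member counts. Its level there was 170 to 567 CPM, beside 2311 CPM in sample 21 and 5724 CPM in sample 38. Samples 4, 21, 38 and 55 carried blood. The source of their THBS1 was not tested. Sample 36, in which THBS1 took 78.3% of the member counts, stood at 1.22% of the blood median.

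Under the rule, TNNT2 had the highest ratio, 859, followed by NEBL with 494, a gene without a symbol (ENSSSCG00000024505) with 422, RYR2 with 415, SERPINB2 with 371, CDH2 with 341 and MYBPC3 with 297. The median was 0 CPM in blood for 27 members and 0 CPM in muscle for 5. At the ratio limit, the members just inside were a gene without a symbol at 10.3, FAT1 at 11.0 and CLU at 11.1, and the genes just outside included CCDC141 at 9.54 and SLC41A1 at 9.13. At the level limit, RBPMS2 (102 CPM), B3GALT2 (109.7 CPM) and CCK (110.2 CPM) were just inside, and ZFPM2 (99.2 CPM), ANKH (95.6 CPM) and a gene without a symbol (94.8 CPM) just outside. Without sample 38 the rule gave 49 genes, of which 43 were among the 46.

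Most members also passed the ratio limit with heart levels from libraries the rule did not use. Only the heart level was new here, since the rule had chosen the members for low medians in the same muscle and blood libraries. The share of other genes that would pass was not counted. With the same muscle and blood medians, 35 of 46 members had at least 10 times m + 1 in micro-EMB at baseline and 30 in micro-EMB at follow-up. The count was 39 of 46 in the 11 baseline micro-EMB libraries of pigs 4493, 4664 and 4665, which gave no conventional EMB, muscle or blood. In conventional EMB at follow-up it was 32. THBS1 was among those below the limit, with 2.01 at baseline and 4.94 at follow-up in micro-EMB, and TECRL had 18.7 and 1.72.

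**Figure D2:**
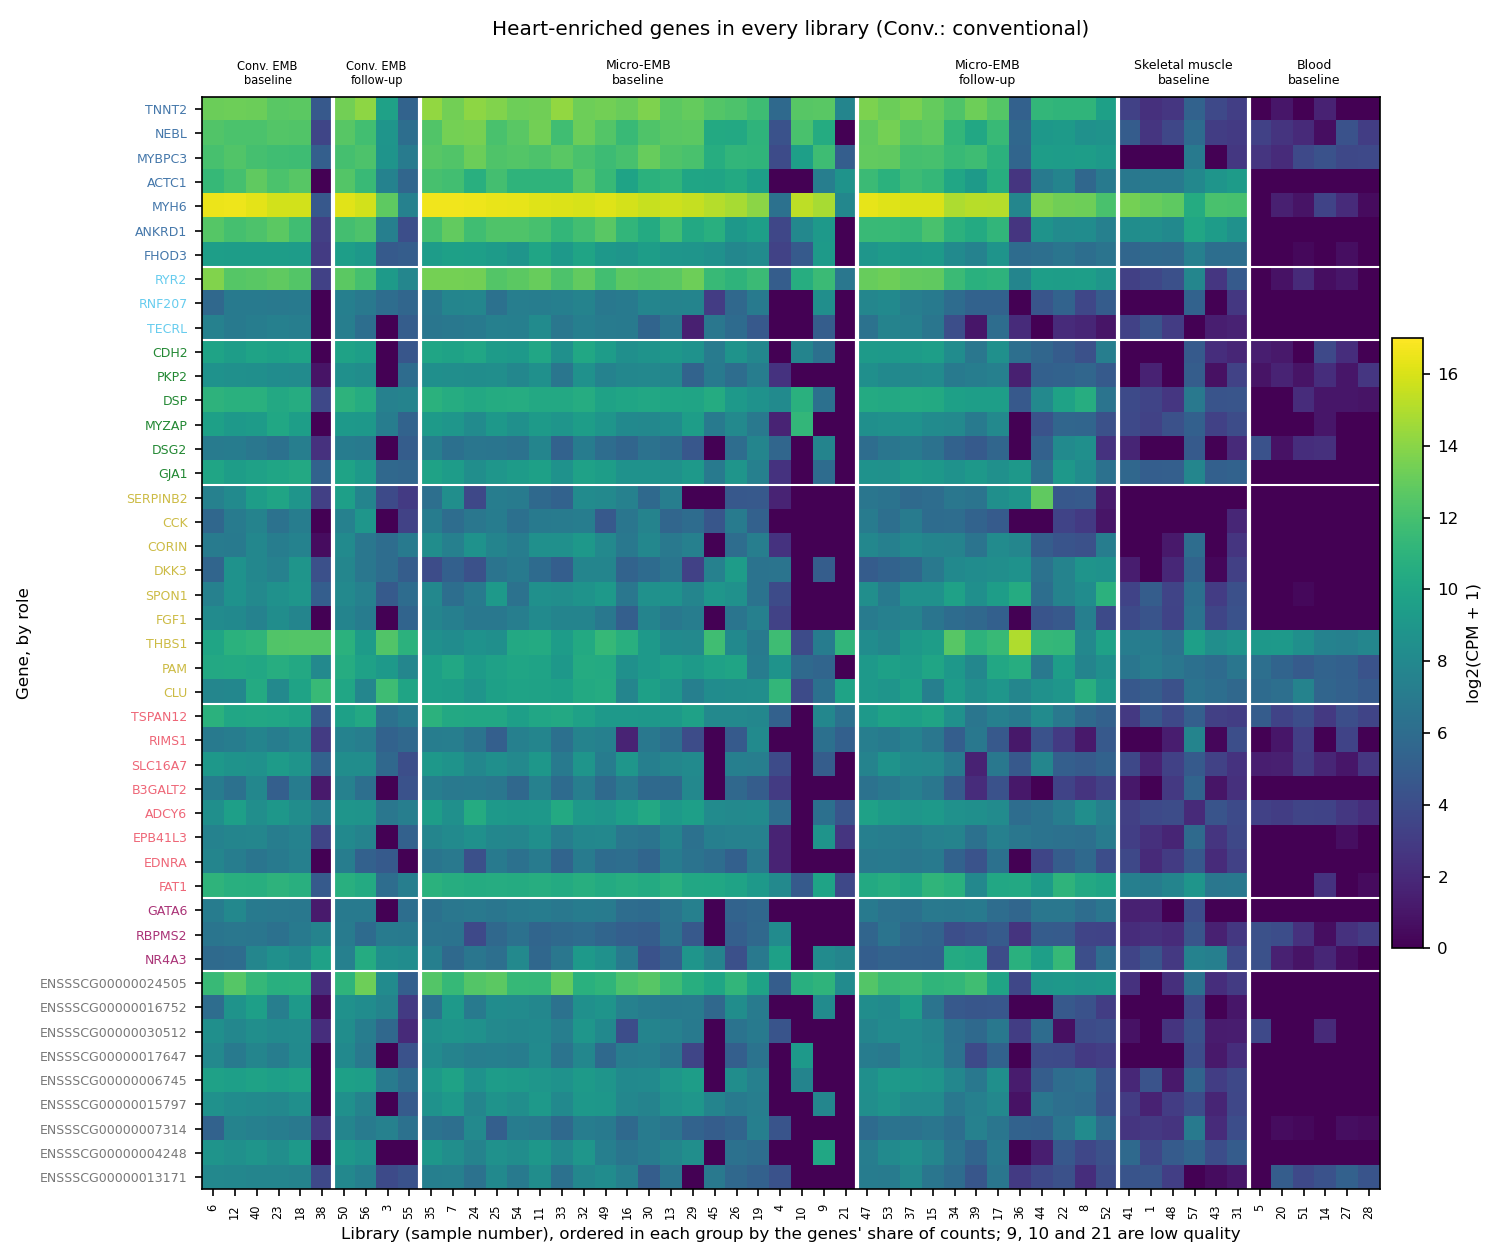
Level of the members, all but 1 of which are shown, as log2(CPM + 1) in each of the 54 libraries, with genes grouped by role and libraries grouped by sample type and timepoint. Samples 38, 4 and 36 are dark over much of the contractile, excitability and disc genes, while THBS1 and CLU are not.

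Of the contractile genes, TNNT2 encodes the cardiac form of troponin T, which ties the calcium switch to the thin filament. It measured 9243, 9925, 6690, 6560, 26.3 and 9113 CPM in the conventional EMB baseline samples 6, 12, 18, 23, 38 and 40. In micro-EMB it ranged from 56.4 to 19291 CPM at baseline (median 9721, n = 17) and from 37.3 to 12681 CPM at follow-up (median 5547, n = 12). The ranges overlapped, with samples 33 and 35 of pig 4493 the highest at baseline and sample 36 the lowest at follow-up. Muscle lay between 4.10 and 39.9 CPM and blood at or under 2.06 CPM. Its skeletal paralogue TNNT1 had medians of 1014 CPM in muscle and 321 CPM in conventional EMB at baseline.

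NEBL encodes nebulette, an actin-binding protein of the cardiac Z-disc. Its micro-EMB values were 18.1 to 11871 CPM at baseline (median 5238) and 51.1 to 10969 CPM at follow-up (median 1814), and the follow-up range lay inside that of baseline. MYBPC3, cardiac myosin-binding protein C, ran from 13.5 to 9412 CPM (median 4979) and from 46.6 to 7626 CPM (median 2340). It was at 0 CPM in 4 of 6 muscle libraries, where MYBPC1 and MYBPC2, the skeletal forms, had medians of 8390 and 4787 CPM. In conventional EMB at baseline these forms had medians of 1.33 and 2.41 CPM.

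MYH6, the cardiac alpha myosin heavy chain, had 81.3 to 103004 CPM at baseline (median 62766) and 217 to 83465 CPM at follow-up (median 33264) in micro-EMB. Muscle had 1430 to 11340 CPM. No identifier of the table was paired with the symbol MYH7, the near-identical beta chain, so reads of the beta chain may stand under MYH6 and its values are uncertain to that extent. ACTC1, cardiac alpha-actin, had medians of 2086 CPM at baseline and 844 CPM at follow-up in micro-EMB, 188 CPM in muscle and 0 CPM in blood, and shares most of its coding sequence with the skeletal actin. ANKRD1, a stretch-responsive ankyrin repeat protein of the sarcomere, had medians of 3511 and 1657 CPM, and FHOD3, a formin that assembles actin in the sarcomere, 536 and 233 CPM.

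Among the genes of calcium release and excitability, RYR2 encodes the cardiac ryanodine receptor. It measured 31.6 to 11352 CPM in micro-EMB at baseline (median 6335) and 208 to 9817 CPM at follow-up (median 1910). Of the follow-up libraries, 4 lay above the baseline median and sample 36 was the lowest. In muscle it was 5.51 to 27.7 CPM in 5 libraries and 218 CPM in sample 57. RNF207, a ring finger protein linked to repolarization, had medians of 145 CPM at baseline and 41.1 CPM at follow-up. TECRL, a protein of the endoplasmic reticulum in which mutations cause a catecholamine-sensitive arrhythmia, had medians of 106 CPM (0 to 288) and 9.73 CPM (0 to 195). The follow-up range of TECRL lay inside that of baseline.

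CDH2, N-cadherin of the intercalated disc, was 915, 709, 914, 794, 0 and 922 CPM in samples 6, 12, 18, 23, 38 and 40. The 0 of sample 38 allows up to 1.34 CPM. In micro-EMB it ran from 0 to 1133 CPM at baseline (median 509) and from 17.5 to 747 CPM at follow-up (median 230), so that the follow-up values lay inside the baseline range. DSP, desmoplakin, had medians of 1206 and 851 CPM and PKP2, plakophilin-2, 235 and 137 CPM. Both belong to the desmosome, as does DSG2, a desmoglein, with 77.8 and 56.6 CPM. MYZAP, a protein of the disc's adherens junctions, had 372 and 189 CPM. GJA1, the main gap junction protein of the working ventricle, had 473 CPM (4.51 to 882) and 407 CPM (74.5 to 651), the nearest to equal of the disc genes.

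The secreted proteins were less alike. SPON1, spondin-1 of the extracellular matrix, measured 13.5 to 593 CPM at baseline (median 331) and 70.0 to 1913 CPM at follow-up (median 367). Samples 34, 17, 36 and 52 at follow-up, from 3 pigs, held 850, 691, 1424 and 1913 CPM, above every baseline library. THBS1, the matricellular protein thrombospondin-1, ran from 127 to 3581 CPM at baseline (median 583) and from 226 to 32112 CPM at follow-up (median 1436). Sample 36 had the highest value and sample 34, with 6189 CPM, was the only other one above the baseline range. SERPINB2, an inhibitor of plasminogen activation, was at 0 CPM in every muscle and blood library, had a median of 55.5 CPM at baseline (0 to 331) and 90.2 CPM at follow-up (1.40 to 7246), and its highest value was in sample 44. DKK3, a secreted Dickkopf-family protein, had medians of 88.6 and 234 CPM.

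CORIN, the protease that activates atrial natriuretic peptide, had medians of 169.6 CPM at baseline and 180 CPM at follow-up. PAM, which amidates peptide hormones, had 828 and 612 CPM, and CCK, the peptide cholecystokinin, 102 and 34.6 CPM. CLU, the extracellular chaperone clusterin, had 767 and 483 CPM, and FGF1, a growth factor, 149 and 58.6 CPM.

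Of the receptors and membrane proteins, TSPAN12, a tetraspanin, had medians of 771 CPM at baseline and 228 CPM at follow-up, and ADCY6, a major adenylyl cyclase of the heart, 548 and 341 CPM. The endothelin receptor EDNRA had 79.0 and 47.0 CPM, the monocarboxylate transporter SLC16A7 228 and 120.0 CPM, the galactosyltransferase B3GALT2 61.1 and 14.2 CPM, and the exocytosis scaffold RIMS1 93.7 and 29.7 CPM. EPB41L3, which links the membrane to the cytoskeleton, had 205 and 135 CPM, and FAT1, a giant protocadherin, 1379 and 1232 CPM. Of the regulators, GATA6, a cardiac transcription factor, had 99.1 and 103 CPM. RBPMS2, an RNA-binding protein, had 53.6 and 28.6 CPM. NR4A3, an immediate-early nuclear receptor, had medians of 114 and 55.0 CPM, but 4 of its follow-up libraries exceeded the highest baseline value of 819 CPM, with 2731 CPM in sample 22.

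The 9 members without a symbol cannot be placed by role. ENSSSCG00000024505 had 31.6 to 8151 CPM in micro-EMB at baseline (median 2702) and 11.2 to 5582 CPM at follow-up (median 1601). ENSSSCG00000016752 had medians of 142 and 24.4 CPM. In the comparison of timepoints given next, 8 of the 9 had a negative log2 fold change, with a median of -0.83.

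**Figure D3:**
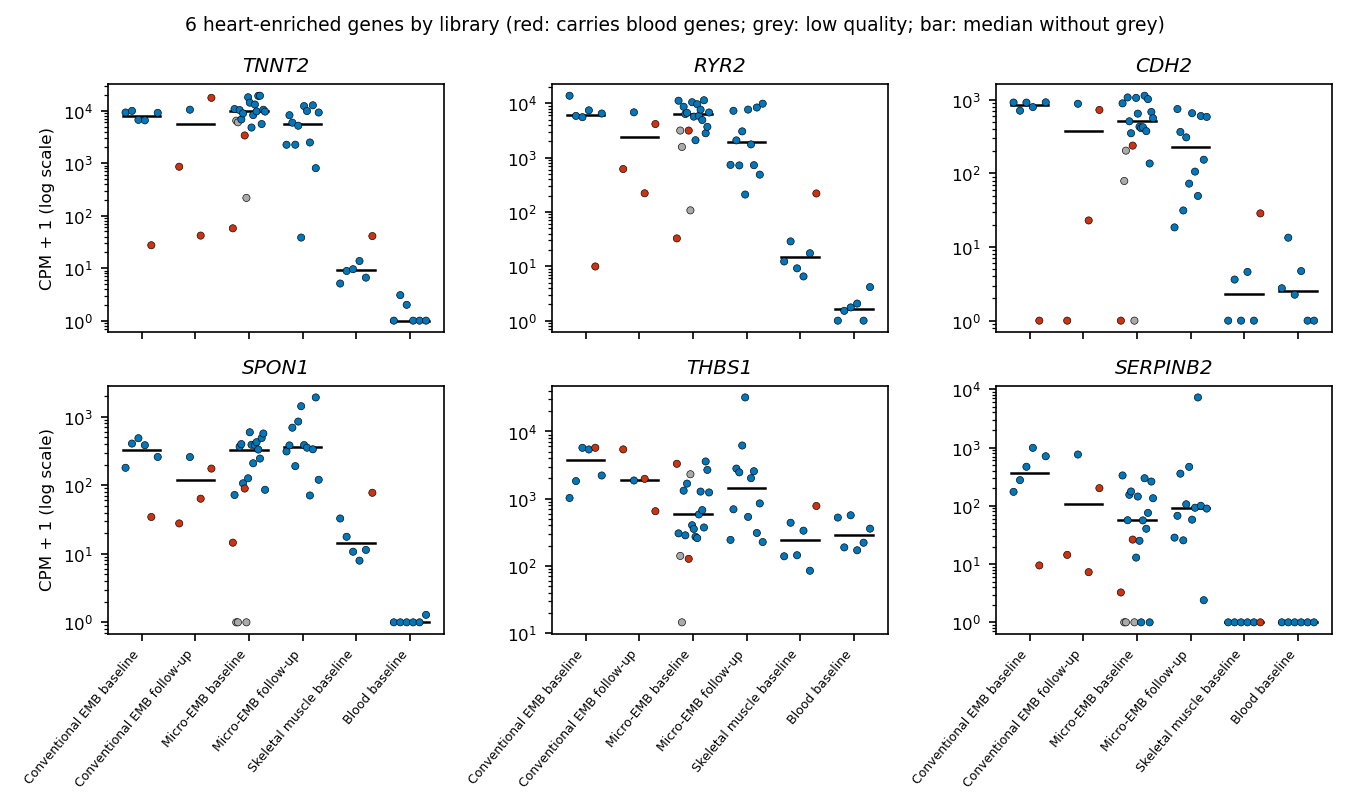
CPM + 1 (log axis) of 6 members in each library by group. Red points carry blood genes, grey points are low-quality biopsies and bars are medians without the grey points. In sample 36, at follow-up, TNNT2 had 37.3, RYR2 208 and CDH2 71.6 CPM, where THBS1 had 32112 CPM.

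Follow-up was compared with baseline in micro-EMB to ask whether the heart-enriched genes differed in tissue that had been biopsied before. No member was called higher or lower in the 12 follow-up against the 17 baseline libraries, with the pig in the model (edgeR quasi-likelihood test, Benjamini-Hochberg adjustment over 10029 genes, adjusted p = 0.999592 for every member). Of all genes tested, 0.00997% were called higher and 0% lower, which was a single gene and not a member. At an unadjusted p under 0.05, 1 member was higher and 0 were lower, against 378 genes in all. DESeq2 called 0 members and 18 genes, and had 1 member higher and 6 lower at an unadjusted p under 0.05, against 602 of the 10029 genes. The standard errors of the members' log2 fold changes ran from 0.31 to 1.05 (median 0.58), and a p that misses the threshold does not show that the levels were equal.

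The log2 fold change was negative for 38 of the 46 members, with a median of -0.56 beside 0.09 over all genes tested. All 7 contractile genes were negative, from -0.93 (ANKRD1) to -0.38 (TNNT2). Likewise all 4 genes of calcium release and excitability were negative, among them TECRL with -1.57 (SE 0.78) and RYR2 with -0.75 (SE 0.57), and all 6 disc genes, from -1.004 (CDH2, SE 0.58) to -0.03 (GJA1, SE 0.43). B3GALT2 had -1.18 (SE 0.68). Of the 9 secreted proteins 5 were negative, and the positive ones were SPON1 with 1.24 (SE 0.48), THBS1 with 1.18 (SE 0.70), SERPINB2 with 1.03 (SE 1.05) and DKK3 with 0.93 (SE 0.49). The others above 0 were NR4A3 with 1.16 (SE 0.82), GATA6 with 0.40 (SE 0.49), FAT1 with 0.05 (SE 0.31) and a gene without a symbol. SPON1 was the member with an unadjusted p under 0.05 (p = 0.0151, edgeR quasi-likelihood test, adjusted p = 0.999592), and its log2 fold change was 0.85 without pig 4491 (p = 0.0796 by edgeR, unadjusted). Over 16 settings its adjusted p ran from 0.371 (DESeq2) to 1. For no member did the values of the timepoints lie apart, and for 27 of 46 the follow-up range lay inside the baseline range. Overlap was not counted over all genes, so these counts do not set the members apart from other genes.

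**Figure D4:**
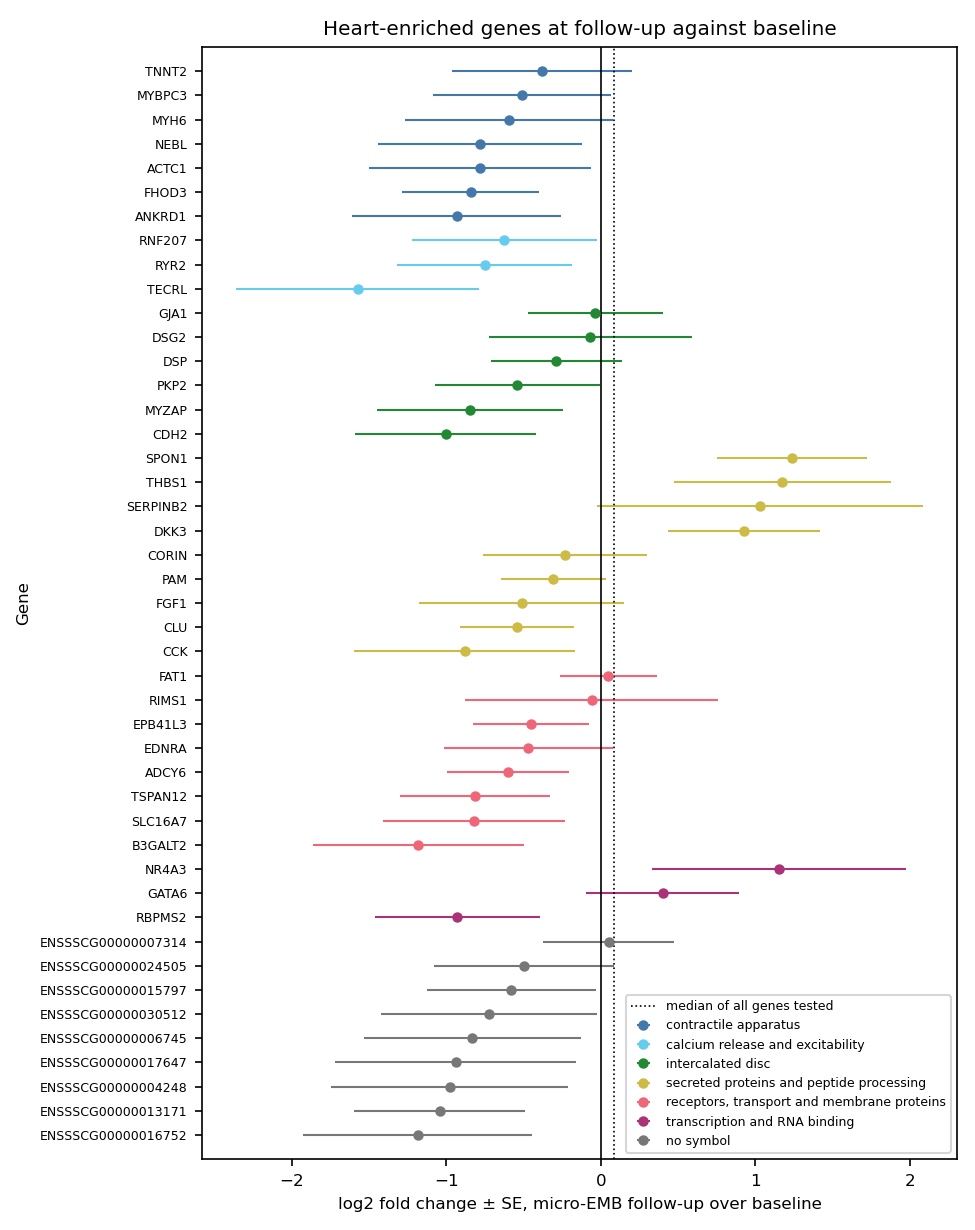
Log2 fold change with its standard error for the members, all but 1 of which are shown, micro-EMB follow-up (12 libraries) over baseline (17), coloured by role. The dotted line is the median of all genes tested, 0.09. No member passed an adjusted p of 0.05.

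The pigs differed among themselves. With the counts of each pig's libraries summed per timepoint, the median log2 change of the members (CPM + 1) was -1.26 in pig 4494, -1.43 in pig 4664 and -0.52 in pig 4665, with 40, 41 and 41 of 46 members lower at follow-up. In pig 4491 it was 0.28, with 19 of 46 lower. That pig's baseline rested on 2 libraries, of which sample 4 carried blood and held 0.842% of its counts on the members and sample 16 held 10.4%. Over all 10794 genes compared this way the pigs' medians were -0.38, 0.07, 0.04 and 0.19 in the same order. The SD of the members' medians over the 4 pigs was 0.78. Lower in all 4 pigs were 17 of 46 members, among them TNNT2 (-0.30, -0.48, -1.09 and -0.66 in pigs 4491, 4494, 4664 and 4665), MYH6, MYBPC3, RYR2, TECRL, ADCY6 and CLU, while 8.25% of the 10794 genes were. With the libraries that carried blood left out of the model, the median of the members was -0.76, and 8 were lower and 1 higher at an unadjusted p under 0.05, against 505 of 9822 genes in either direction. With the model fitted on counts summed per pig and timepoint it was -0.69, and 16 were lower and 2 higher at that level, against 659 of 12620 genes. No member was called in either.

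Libraries low in the members were of more than 1 kind. Fibroblast markers (5 of 7 listed genes were found, COL1A2, COL3A1, DCN, LUM and PDGFRA) had a summed level of 621 to 47714 CPM at baseline (median 13266) and 2908 to 73102 CPM at follow-up (median 28081) in micro-EMB, and 2731 to 10173 CPM in conventional EMB at baseline. They exceeded 20000 CPM in 3 of 17 baseline and 7 of 12 follow-up micro-EMB libraries. Of the 5 follow-up libraries under 5.09% of counts on members, samples 8, 22, 36 and 52 held 40444, 22014, 73102 and 42193 CPM of the markers. Sample 44 held 2908 CPM. It stood at 7.30% of the blood median on the 52 genes. Its 4085 CPM of blood cell markers was the highest of the micro-EMB libraries. At baseline, sample 26 had the most, 47714 CPM, and the 5.09% share. Both blood-carrying baseline libraries, samples 4 and 19, were low in both sums. In the follow-up comparison none of the 5 markers was called, and their log2 fold changes ran from 0.09 (DCN) to 1.23 (COL3A1). What part fibroblasts or their RNA had in the members' values was not tested. Without sample 36 the members' median was -0.42, with 0 called.

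**Figure D5:**
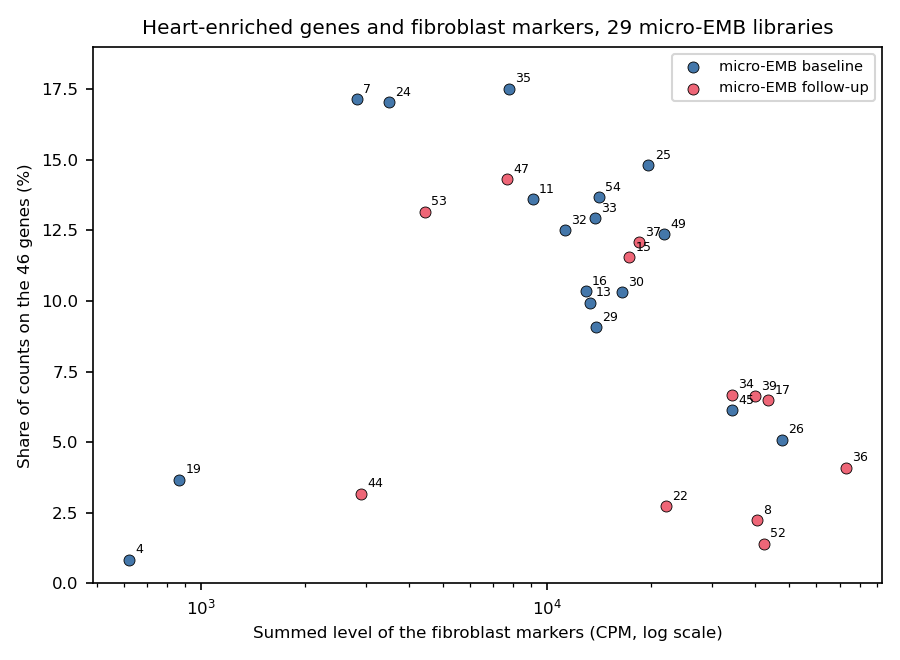
Share of counts on the 46 genes (percent) against the summed level of 5 fibroblast markers (CPM, log axis) in 29 micro-EMB libraries, labelled by sample number. Samples 4, 19 and 44 were low on both axes, and samples 8, 22, 36 and 52 were low in the members with over 20000 CPM of the markers.

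Across these 29 libraries most members varied together. The correlation of a gene's log2 CPM with the mean of the other members was at least 0.5 for 37 of 46, led by NEBL (r = 0.96), ACTC1 (0.94), MYBPC3 (0.93) and RYR2 (0.93). It was below 0 for 3 members, THBS1 (-0.53), NR4A3 (-0.44) and DKK3 (-0.43), and near 0 for CLU (0.02) and SPON1 (0.09). Libraries share pigs and each value is a share of its library's total, so these correlations are a description. The genes outside the set with the highest correlation to its mean were MYOT (0.97), TXLNB (0.96), CMYA5 (0.96), ENO3 (0.96) and TRIM63 (0.96). All 5 were also present in skeletal muscle, with rule ratios of 0.142 to 1.56.

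Lists of cardiac genes showed where the members stand among other heart genes. Of 33 sarcomere genes 22 were in the table and 7 were members, among 21 tested none was called, and all 21 had a negative log2 fold change at follow-up (median -0.64). Nonmembers such as ACTN2 (-0.71), MYOM1 (-0.64) and DES (-0.50) had medians in muscle of 4131, 3109 and 3555 CPM, beside 4595, 2509 and 2511 CPM in conventional EMB at baseline. Of 13 tested genes of calcium and ion handling, 12 were negative (median -0.75) and of 9 metabolic genes all were (median -0.71), with 0 called in either. The 9 tested cardiac transcription factors had a median of -0.16, the 4 genes of natriuretic peptides and stress -0.27, the 11 signalling genes -0.47 and the 7 of endothelium and endocardium -0.08, again with 0 called. Matrix and fibroblast genes, of which THBS1 is the only member, had a median of 1.18 over 23 tested, 0 called and 9 higher at an unadjusted p under 0.05. Beside these, the median over all genes was 0.09.

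The devices were compared at follow-up in pigs 4491 and 4494, which gave both, to see whether the miniature biopsy held the heart-enriched genes at the level of the forceps biopsy. No member was called among 6 micro-EMB and 4 conventional EMB libraries (edgeR quasi-likelihood test, Benjamini-Hochberg adjustment over 10706 genes, adjusted p from 0.707 to 1.000), and 0% of all genes were. At an unadjusted p under 0.05, 2 members were lower and 0 higher, against 631 genes in all. These were RBPMS2 (log2 fold change -1.78, SE 0.64) and a gene without a symbol, ENSSSCG00000016752 (-2.79, SE 1.09). DESeq2 called RBPMS2 lower (-2.14, adjusted p = 0.0247) and no other member, with 142 genes called in all.

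Over the settings tried the adjusted p of RBPMS2 ran from 0.0247 to 1. It had 134, 134, 122 and 61.3 CPM in the conventional samples 3, 50, 55 and 56 and 9.98 to 42.4 CPM in the 6 micro-EMB libraries. The devices did not overlap, but the share of all genes for which this held was not counted. The value of sample 3 was 10 counts, and samples 3, 55 and 56 carried blood. At baseline RBPMS2 was highest in blood-carrying libraries, micro-EMB sample 4 (293 CPM) and conventional EMB sample 38 (192 CPM). The blood libraries themselves reached 17.5 CPM. The members' median was -0.56 with 32 of 46 negative, beside 0.14 over all genes. In the same fit the 5 fibroblast markers had a median of 2.10, with COL1A2 at 4.25 (SE 1.30), and the 3 tested of 9 listed blood cell markers a median of -3.45, with HBB at -4.46 (SE 1.08), and none was called. The summed fibroblast markers held 354 to 7059 CPM in the 4 conventional libraries and 2908 to 40444 CPM in the 6 micro-EMB libraries, and the blood cell markers 99.7 to 9576 CPM and 72.9 to 4085 CPM. Their part in the members' values was not tested. The standard errors of the members ran from 0.64 to 1.73. On simulated data the edgeR fit called 3 of 84 genes changed by a log2 fold of 3. The lack of calls therefore does not show that the devices gave equal levels. With DESeq2's size factors the median over all genes was -0.20 in place of 0.14, and that of the members -0.75. The direction rested on 1 library. Without conventional EMB sample 50 the members' median was 0.42, and without the 3 blood-carrying conventional libraries, which leaves sample 50 alone in its arm and assumes that it varies like the others, it was -2.05.

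At baseline the devices can only be described, since conventional EMB chose the members. The median in micro-EMB was lower than in conventional EMB for 33 of 46 members, and the median log2 ratio (CPM + 1) was -0.49, beside -0.12 over the 1665 genes at the level limit. SERPINB2 (-2.72) and THBS1 (-2.71) were lowest, followed by DKK3 (-1.22), NR4A3 (-1.08) and ACTC1 (-1.04), while ADCY6 (0.67) and MYBPC3 (0.37) were among those higher in micro-EMB. In conventional EMB itself, 41 of 46 members had a lower median at follow-up than at baseline (median log2 ratio -1.0015), where 3 of the 4 follow-up libraries carried blood. Choosing members by a high baseline level by itself favours lower values at follow-up. The same count over all genes was not made, and the cause was not tested.

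The low-quality biopsies kept members to different degrees. Sample 9, from pig 4493, had 64216 counts and 2630 genes at 1 CPM or more. Its members took 5.11% of counts (95% Wilson interval 4.94 to 5.28%), and 29 of 46 had a count. MYH6 had 1827 counts, 55.7% of the member counts, followed by TNNT2 (415 counts), MYBPC3 (213) and RYR2 (202). Sample 10, from pig 4491, had 73988 counts and 1386 genes. The share was 6.02% (5.85 to 6.20%), and 18 members had a count, led by MYH6 with 2964 counts (66.5%), TNNT2 (445) and NEBL (334). ACTC1 had 0 counts. Skeletal muscle fibre markers (3 of 9 listed genes were found, ACTA1, TNNC2 and MYBPC2) summed to 30843 CPM in sample 10. This lay within the 16063 to 96460 CPM of the skeletal muscle libraries, while conventional EMB at baseline reached 12547 CPM. In those conventional libraries the median of the sum was 6779 CPM, while that of MYBPC2 was 2.41 CPM. ACTA1 also belongs to the list of natriuretic peptides and stress. The sum was not split by gene, and the cause of its level in sample 10 was not tested.

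Sample 21, also from pig 4491, had 764492 counts but 1689 genes, and its 10 highest genes took 70.3% of all counts. The members took 0.497% (0.481 to 0.513%) and 15 had a count. THBS1 led with 1767 counts, 46.5% of the member counts, then CLU with 719 and ACTC1 with 317, while MYH6 had 181 and NEBL and CDH2 had 0, which allows up to 3.92 CPM. In the 29 other micro-EMB libraries 33 to 46 members had a count and the 10 highest genes took 4.14 to 34.9% of counts. Samples 9 and 10 therefore held member shares within the range of those libraries, with fewer members detected, and sample 21 held less than any of them. Conventional EMB sample 3, with 74767 counts, had 34 members with a count and 6807 genes at 1 CPM or more. Samples 9 and 21 carried blood. With all 3 included, the median of the members at follow-up against baseline was -0.31 and 0 were called.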

How the data were processed

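The authors deposited whole-number read counts per gene for 54 samples, without normalization. Per the labels and methods, total RNA libraries were made with a stranded kit, trimmed with Trim Galore, mapped to Sscrofa10.2 with STAR and counted with featureCounts. The strand setting of the counting was not given in the sources used here, so overlapping antisense genes cannot be told apart. Symbols were paired with 11791 identifiers. Groups and pigs came from the labels.

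CPM used column sums. Comparisons used edgeR 4.0.16 in R 4.3.3 (TMM, filterByExpr, quasi-likelihood test, pig as a term), fitted on all genes, with Benjamini-Hochberg adjustment at 0.05. DESeq2 1.42.0 was an alternative. The edgeR fits of both comparisons, as given in the report before any alternative, were tested on simulated data. Between the timepoints, the fit called 4 of 95 genes changed by a log2 fold of 1 and 70 of 89 changed by 3. Between the devices it called 0 of 93 and 3 of 84. False calls were 2 in each, among 9465 and 9922 genes. The size of a log2 fold change over the square root of its F value gave the SE. Figures used matplotlib 3.10.9. The pig is the replicate block, since labels give the same animal at both timepoints. Deviations of the timepoints correlated at -0.16, -0.11, 0.13 and 0.20 in pigs 4491, 4494, 4664 and 4665.

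The members, lists and tests were chosen with earlier results of these data known, and the grouping by role and the markers of blood were set with the members known. Genes named were the 20 with the highest ratio, members on the lists, genes at the limits, paralogues and the 5 genes most like the set. Most other members with a symbol were named too, and 1 member and 1 gene just outside a limit are not reported by name here, though they stay in all counts. Samples singled out, and nonmembers given as examples from lists, were chosen after their values were seen. Promoter sequences were not analysed here.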

Additional observations from a re-analysis of the deposited data

Results flagged for a closer look

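Libraries far from the rest of their group were looked for in 12 members and in the summed share, over conventional EMB, skeletal muscle and blood. Of 52 groups of values 17 held one (Dixon's test at 95%). Chance gives about 1 in 20 for independent groups, and these are not independent, since the same libraries recur. In conventional EMB at baseline all came from sample 38, with 1.03% of counts on the members, 26.3 CPM of TNNT2, 10.7 CPM of NEBL, 0 CPM of CDH2 and 34.8 CPM of MYBPC3. In muscle all came from sample 57, with 39.9 CPM of TNNT2, 218 CPM of RYR2, 27.6 CPM of CDH2, 126 CPM of MYBPC3, 76.7 CPM of SPON1, 218 CPM of GJA1 and 117 CPM of DSP, each the highest muscle value. Sample 57 had the fewest counts of the muscle libraries, 325907, and its TNNT2 and CDH2 values were 13 and 9 counts. Its blood genes stood at 17.5% of the blood median. In blood, sample 51 had 3.15 CPM of RYR2, 3.43 CPM of DSP and 0.286 CPM of SPON1, which was 1 count where the other 5 libraries had 0, and sample 14 had 12.4 CPM of CDH2 and 9.81 CPM of MYH6.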

How the results depend on the processing

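With a ratio limit of 5 the rule gave 86 genes, with 20 it gave 32, and with TMM-scaled CPM 47, of which 41 were among the 46. In micro-EMB at follow-up against baseline, 0 members were called under all 15 alternatives, and the members' median log2 fold change stayed between -0.92 and -0.31. The alternatives that left out libraries at 5% or more of the blood median (-0.92) and sample 36 were added after seeing the data. Leaving out each pig in turn gave medians from -0.79 to -0.39. Without the pig as replicate block the median was -0.76, and with counts summed per pig and the block kept it was -0.69, which changed no call. Between the devices at follow-up, 1 member was called lower by DESeq2 (RBPMS2) and 1 without the filter on low counts (ENSSSCG00000016752). Leaving out each conventional EMB library in turn gave medians from -1.01 to 0.42, the last without sample 50, and without blood-carrying libraries it was -2.05. The cause was not tested. Without the replicate block it was -0.46. Genes called in all there were 0, but 142 with DESeq2, 76 higher and 258 lower without the filter, and 34 without sample 50. Between the timepoints 1 gene was called, and 18 with DESeq2, 16 without the filter and 8 without the block. Depth limits samples 3, 9 and 10 most, where a count of 0 allows 40.1, 46.7 and 40.5 CPM.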
